A study of Rattus norvegicus with 6 samples.

Results

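The genes described here are 31 S phase and DNA replication genes, chosen by name for their known role in copying DNA and not by any measured value. Earlier results of these data were known when they were chosen. All 31 were found among the 22601 genes of the deposited table. They were measured by RNA sequencing in RBL-2H3 cells, a rat basophilic leukemia line (genotype label WT) often used in place of mast cells. The 3 PIO libraries came from a treatment of 6 h with 10 µM PIO, named in the series as an agonist of PPARγ, and the 3 control libraries from cells that did not receive it. All cells were kept in MEM with fetal bovine serum. The question put to these genes was whether PIO had an effect on proliferation that could be read from them. PIO libraries were taken at 6 h only, so an effect that appears later would not be read here. The labels name no vehicle or harvest time for the control cells, so PIO cannot be told apart from such a difference. All libraries are of 1 cell line, and nothing says that replicates were separate cultures. The p-values therefore describe the scatter among these 6 libraries, which may be technical.

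A cell that commits to division activates E2F transcription factors, which turn on genes for copying DNA. Before S phase, Cdc6 and Cdt1 load the ring of Mcm2 to Mcm7 onto origins. Cdc45 and the GINS complex then turn the ring into a working helicase, and polymerases, the sliding clamp Pcna and ribonucleotide reductase carry out and feed DNA synthesis. Transcripts of these genes are high in dividing cells and fall when cells leave the cycle. Ligands of PPARγ have been reported to slow the division of several cultured cell types at G1, with changes in D cyclins or in the CDK inhibitors Cdkn1a and Cdkn1b.

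The values are FPKM, that is fragment counts divided by the length of the gene and by the size of the library. The reads behind them numbered 14048202 to 14322720 in the PIO libraries and 14105533 to 15084729 in the control libraries, of which the 31 genes held 64779 to 67430 in PIO and 66471 to 71808 in control libraries. Of 10 mast cell and basophil markers 9 averaged at least 1 FPKM, summing to 4551 to 4695 FPKM in PIO libraries and 4518 to 4712 FPKM in control libraries, while Tpsb2, a tryptase gene, was at or near 0. Markers of macrophages (1 of 6, Cd68), T cells (0 of 4), B cells (0 of 4) and fibroblasts (1 of 5, Col3a1) otherwise lay below that level, and Marco, C1qa, C1qb, Cd3d and Cd79b were listed at 0 in every library. The T cell markers summed to 0.560 to 0.949 FPKM in PIO and 1.14 to 1.30 FPKM in control libraries, and the fibroblast markers to 4.74 to 4.99 and 5.12 to 5.62 FPKM. Their part in the results was not tested. Control replicate 3 stood apart in the stress factor gene Atf4, which had 243, 240 and 255 FPKM in PIO replicates 1 to 3, against 279, 277 and 617 FPKM in control replicates 1 to 3.

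The promoters of many of these genes carry a site of the kind that E2F factors bind. Promoter windows of RefSeq (rat assembly GRCr8, 250 bases before to 50 bases after the start) were matched by GeneID for 26 of the 31 genes. The genes without an entry were E2f1, Ccne2, Cdc6, Mcm4 and Rrm2. The letters TTTCGCGC, TTTGGCGC, TTTCCCGC or TTTGCCGC, searched on both strands, stood in the windows of 14 of the 26 genes (53.8%). They stood in 651 of all 27457 genes with a window (2.37%), in 21 of 47 other replication genes and in 1 of 20 G2 and M phase genes. The match is a description of letters and not evidence of binding. All 6 origin licensing genes with a window held it, so their stretches are shown first, followed by that of Gins1, where, as in Mcm2, the site reads the same on both strands. Each stretch holds the site nearest the start among those before it, or else the first site at or after it. Capitals mark every base covered by one of these letter runs, and each stretch is written 5′ to 3′ on the strand of the gene.
Mcm2: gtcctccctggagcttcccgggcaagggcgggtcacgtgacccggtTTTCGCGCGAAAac
Mcm3: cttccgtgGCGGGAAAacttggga
Mcm5: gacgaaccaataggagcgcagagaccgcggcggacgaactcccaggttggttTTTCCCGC
Mcm6: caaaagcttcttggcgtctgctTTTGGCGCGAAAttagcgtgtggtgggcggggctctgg
Mcm7: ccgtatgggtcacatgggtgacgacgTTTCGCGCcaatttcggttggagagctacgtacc
Cdt1: cgaaaattGCGCGAAAtccgcggg
Gins1: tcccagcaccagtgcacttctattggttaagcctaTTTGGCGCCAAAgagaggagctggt
In GRCr8 these lie at chr4:122918095-122918154 (minus strand, Mcm2), chr9:30733737-30733760 (minus, Mcm3), chr19:13488753-13488812 (plus, Mcm5), chr13:42404454-42404513 (minus, Mcm6), chr12:22163197-22163256 (minus, Mcm7), chr19:67529248-67529271 (plus, Cdt1) and chr3:160184860-160184919 (plus, Gins1). The stretches of Mcm2, Mcm5, Mcm6, Mcm7 and Gins1 end before the annotated start, and the sites of Mcm3 and Cdt1 lie at or just after it. In Mcm7 the last base of the site is also the first base of a CCAAT box, and Mcm7 was the only one of the 14 genes with such an overlap.

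Other motifs stood in other shares of these windows. CCAAT, searched on both strands, stood in 19 of the 26 windows and in 39.6% of all genes with a window. TTTGAA, known as the core of the cell cycle homology region of mitotic promoters, stood in 2 of the 26 (Mcm2 and Slbp), in 14 of 20 G2 and M phase genes and in 19.4% of all genes. The PPAR response element, AGGTCA repeated directly with 1 base between and searched on both strands, stood in 0 of the 26 windows and in 17 of all 27457 genes. That says only that these letters are not in these windows.

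All 31 genes were expressed, over a range from 1.70 FPKM (Hells) to 229.9 FPKM (Pcna) as the mean of 6 libraries. The median of the 31 was 35.9 FPKM in PIO libraries and 33.6 FPKM in control libraries, against a median of 13.9 FPKM over all 10410 genes tested. Origin licensing was the step with the highest median level, at 83.7 FPKM in PIO and 83.8 FPKM in control libraries, apart from the pair of nucleotide supply genes (109 and 106 FPKM). Medians of the other steps were 43.7 and 41.3 FPKM for chromatin and histones, 32.4 and 31.9 FPKM for DNA synthesis, and 24.1 and 22.6 FPKM for G1/S commitment. Helicase activation stood at 20.9 and 21.4 FPKM and replication control and repair at 16.4 and 16.6 FPKM, in PIO and control libraries in each case. Here and below, comparisons of level between genes or steps rest on the gene lengths divided out in FPKM, which were not checked.

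**Figure D1:**
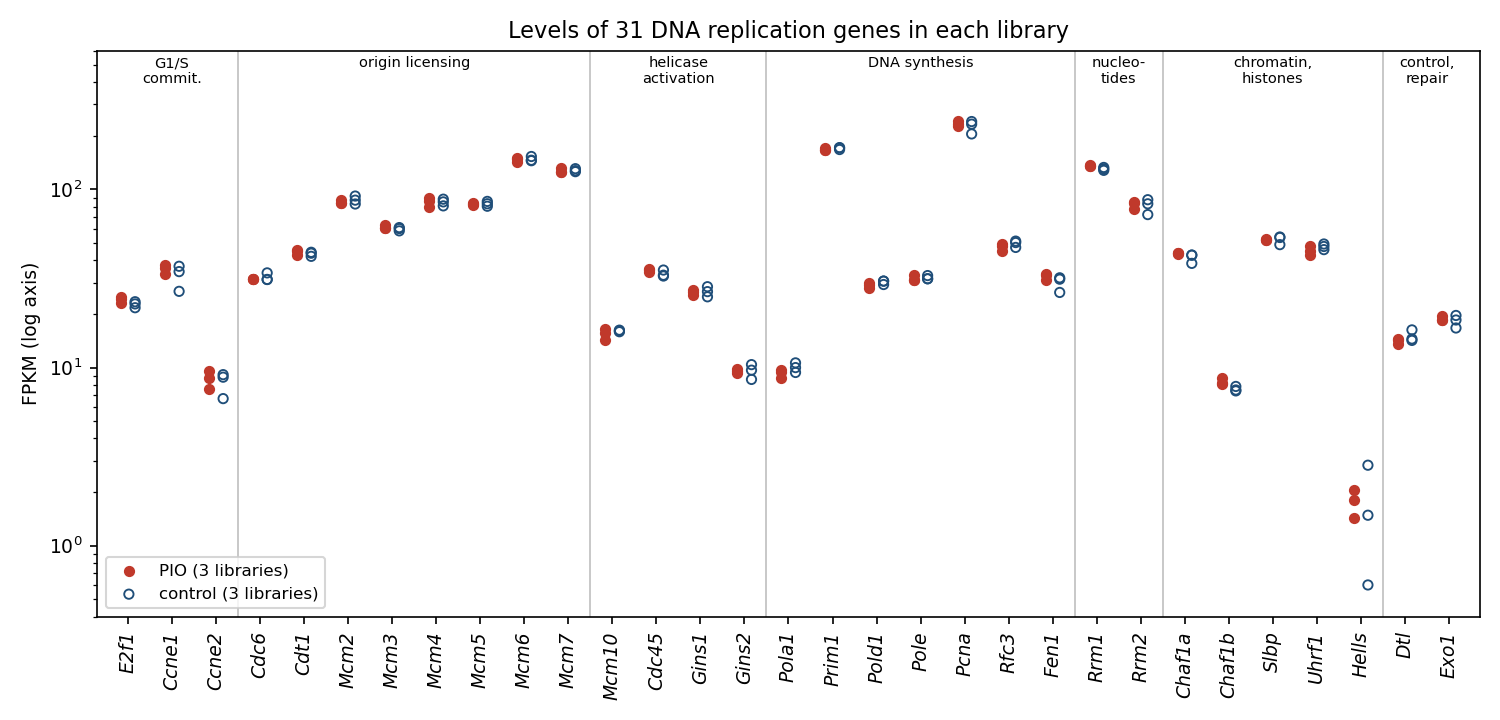
FPKM on a log axis of each of the 31 genes in the 3 PIO libraries (filled, left of each name) and the 3 control libraries (open, right), grouped by replication step. PIO and control points lie close together for nearly every gene, while levels differ widely between genes, and the scatter between libraries is widest for Hells.

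The 6 subunits of the Mcm ring were all among the more abundant transcripts, but not at equal levels. Mcm6 averaged 146 ± 4.21 FPKM in PIO and 148 ± 4.44 FPKM in control libraries (SD, n = 3 each), and Mcm7 averaged 127 ± 3.68 and 128 ± 2.53 FPKM. Mcm2, Mcm4 and Mcm5 averaged 84.9 ± 1.55, 84.7 ± 4.82 and 82.8 ± 1.26 FPKM in PIO libraries, and 87.2 ± 4.48, 84.6 ± 3.67 and 83.0 ± 2.59 FPKM in control libraries. The group means of those 3 lay within a few FPKM of each other, and Mcm2 stood above Mcm5 in each of the 6 libraries. Mcm3 was the lowest of the ring at 61.7 ± 1.40 FPKM in PIO and 59.9 ± 1.29 FPKM in control libraries. Subunits of other complexes also differed in level: the primase catalytic subunit gene Prim1 averaged 168 ± 2.04 FPKM in PIO and 170 ± 2.29 FPKM in control libraries, whereas Pola1, the catalytic polymerase α gene it works with, averaged 9.26 ± 0.452 and 10.0 ± 0.619 FPKM. In ribonucleotide reductase, the large subunit gene Rrm1 (136 ± 1.16 FPKM in PIO, 130 ± 2.45 FPKM in control) stood above the small subunit gene Rrm2 (82.2 ± 4.07 and 80.9 ± 7.87 FPKM). In the chromatin assembly factor, Chaf1a (43.7 ± 0.363 and 41.3 ± 2.50 FPKM) stood above Chaf1b (8.31 ± 0.348 and 7.57 ± 0.232 FPKM).

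No change with PIO passed the test in any of the 31 genes. In limma on log2(FPKM + 0.5), with Benjamini-Hochberg adjustment over 10410 genes, 0 of 31 were called at an adjusted p of 0.05, where 0.0384% of all tested genes were called. At an unadjusted p under 0.05 the count was 0 of 31, where 12.5% of all tested genes stood. Limma-voom on the reads recovered from the FPKM also called 0 of 31, with 0 at an unadjusted p under 0.05. The share of all genes at that unadjusted level is not given here for limma-voom. The smallest adjusted p of the 31 was 0.421 (limma), for Chaf1b. With PIO 16 of the 31 were higher and 15 lower, and 54% of all tested genes were higher. The median log2 fold change of the 31 was 0.00091, against 0.0094 over all tested genes. Fewer cells in S phase and less of these RNAs per cell cannot be told apart in bulk RNA.

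A p-value that misses the threshold does not show that levels were equal, so the 95% intervals of the log2 fold changes (limma, not adjusted for the number of genes) are given as the size of change these libraries leave possible. For 30 of the 31 genes the interval lay between -0.4 and 0.4, that is within 1.32-fold either way, as it did for 85.4% of all tested genes. For 23 of the 31 it lay between -0.2 and 0.2, as it did for 41.5% of all tested genes. The gene outside the wider range was Hells. The median level of the 31 stood at percentile 74.9 of all tested genes, and the shares among genes of like level are not given here. The fold changes of 30 of the 31 genes lay within the central 90% of all tested genes, which ran from -0.20 to 0.18 on the log2 scale.

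**Figure D2:**
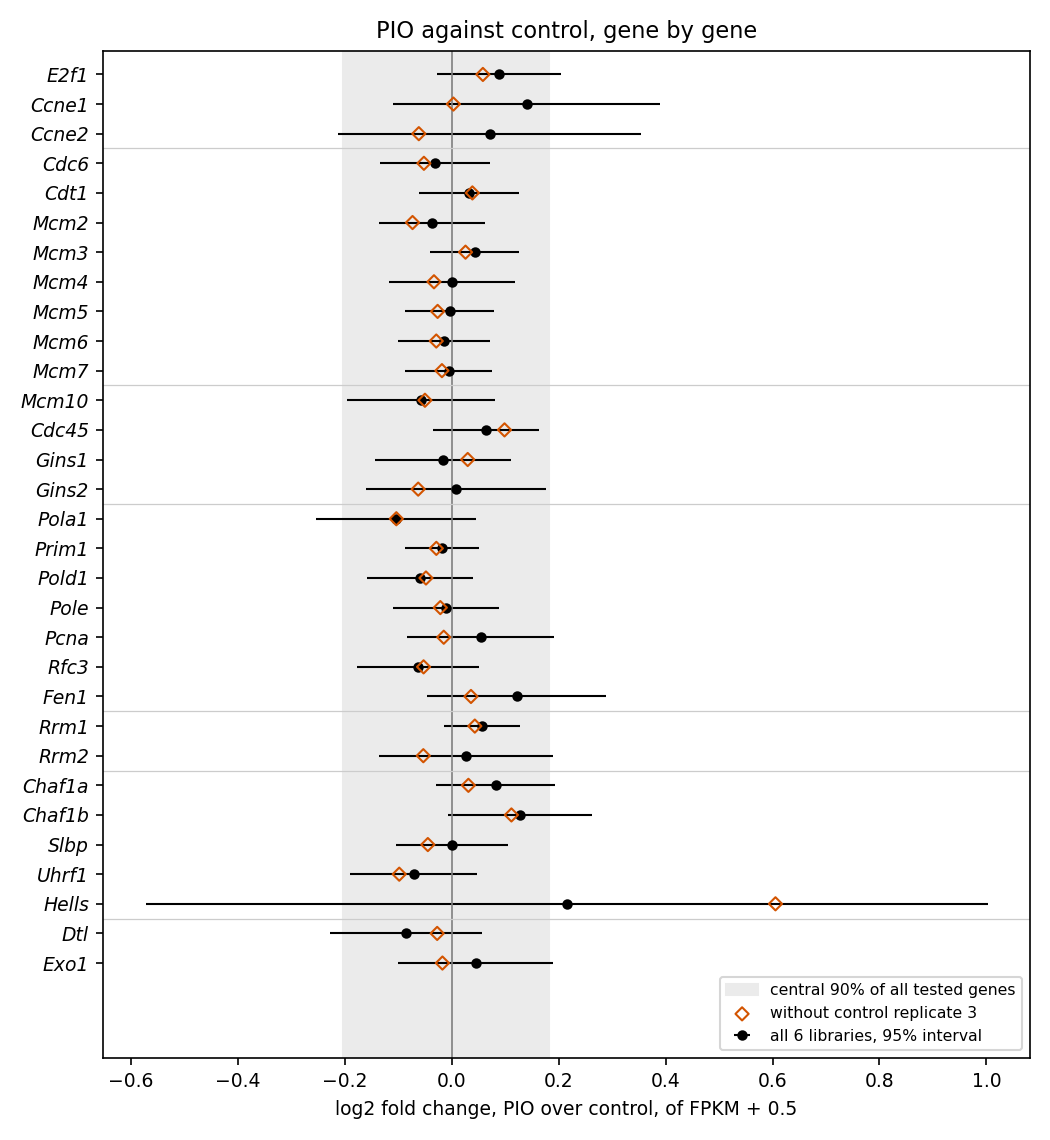
Log2 fold change of FPKM + 0.5, PIO over control, for each gene with its 95% limma interval (black) and the value without control replicate 3 (open diamonds), on the range of the central 90% of all tested genes (grey, -0.20 to 0.18). Every black interval crosses 0, and the diamonds of Ccne1, Ccne2 and Hells lie farthest from their black points.

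At G1/S commitment the values overlapped between groups. Ccne1 (GeneID 25729), which encodes the cyclin E that activates Cdk2, had 36.1, 37.8 and 33.7 FPKM in PIO replicates 1 to 3 and 34.5, 37.0 and 26.8 FPKM in control replicates 1 to 3. Its relative Ccne2 had 8.73, 9.53 and 7.58 FPKM in PIO libraries and 9.12, 8.83 and 6.69 FPKM in control libraries. Control replicate 3 was the lowest library for both cyclins, and for both PIO replicate 3 was the next lowest. The log2 fold change of Ccne1 was 0.14 (SE 0.11, limma adjusted p = 0.605) and was 0.0031 without control replicate 3, and that of Ccne2 was 0.071 (limma adjusted p = 0.829), against -0.061 without that library. E2f1, the factor that drives S phase genes, had 24.2, 22.9 and 25.0 FPKM in PIO libraries and 23.4, 22.7 and 21.7 FPKM in control libraries (log2 fold change 0.088, 95% interval -0.028 to 0.20, limma adjusted p = 0.495).

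Origin licensing genes were measured closely, with the 95% intervals of all 8 between -0.2 and 0.2. Mcm5 (GeneID 291885) had 84.1, 81.6 and 82.7 FPKM in PIO libraries and 85.6, 83.0 and 80.4 FPKM in control libraries. Mcm7 (GeneID 288532) had 126, 132 and 125 FPKM in PIO libraries and 131, 127 and 126 FPKM in control libraries. PIO values fell inside or next to the control range for both genes. The 6 ring genes had log2 fold changes from -0.037 (Mcm2, 95% interval -0.14 to 0.063) to 0.043 (Mcm3, -0.040 to 0.13), with limma adjusted p from 0.633 to 0.999. Cdt1, the loader that is destroyed once S phase begins, had 45.4, 42.9 and 44.9 FPKM in PIO libraries and 44.4, 42.1 and 43.8 FPKM in control libraries (0.032, limma adjusted p = 0.760). Cdc6, its partner at the origin, had 31.5, 31.3 and 31.4 FPKM in PIO libraries and 31.2, 34.0 and 31.2 FPKM in control libraries (-0.031, limma adjusted p = 0.787).

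Among helicase activation genes, Cdc45 had 35.7, 35.2 and 34.5 FPKM in PIO libraries and 33.0, 32.6 and 35.2 FPKM in control libraries (log2 fold change 0.065, limma adjusted p = 0.549). Control replicates 1 and 2 lay below every PIO library and control replicate 3 lay among them. Without control replicate 3 the log2 fold change was 0.099 (limma unadjusted p = 0.0370, adjusted p = 0.407). Mcm10, which helps the helicase to start, averaged 15.4 ± 1.16 FPKM in PIO and 16.1 ± 0.164 FPKM in control libraries. The GINS subunit gene Gins1 averaged 26.4 ± 0.881 and 26.7 ± 1.74 FPKM, and Gins2 averaged 9.57 ± 0.228 and 9.54 ± 0.910 FPKM (SD, n = 3 each). These 3 had log2 fold changes between -0.057 and 0.0083.

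Of the DNA synthesis genes 5 were lower and 2 higher with PIO, and none passed. Pcna (GeneID 25737), the sliding clamp, had 234, 242 and 226 FPKM in PIO libraries and 240, 232 and 205 FPKM in control libraries (log2 fold change 0.054, 95% interval -0.083 to 0.19, limma adjusted p = 0.721). Fen1, the nuclease that trims Okazaki fragments, had 33.3, 33.0 and 31.1 FPKM in PIO libraries and 31.9, 31.3 and 26.4 FPKM in control libraries (0.12, limma adjusted p = 0.513). In both genes control replicate 3 was the lowest library, and without it the log2 fold changes were -0.015 for Pcna and 0.036 for Fen1. Pola1 had the lowest fold change of the 31 genes, with 9.63, 9.39 and 8.76 FPKM in PIO libraries and 9.38, 10.6 and 9.99 FPKM in control libraries (-0.10, 95% interval -0.25 to 0.046, limma adjusted p = 0.530). The groups overlapped for Pola1, since PIO replicates 1 and 2 lay at or above control replicate 1. The leading strand polymerase gene Pole (31.7 ± 1.16 FPKM in PIO, 31.9 ± 0.765 FPKM in control), the lagging strand polymerase gene Pold1 (28.9 ± 0.969 and 30.1 ± 0.767 FPKM), the clamp loader gene Rfc3 (47.4 ± 2.38 and 49.6 ± 2.10 FPKM) and Prim1 had log2 fold changes between -0.063 and -0.011.

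PIO and control values did not overlap for 3 of the 31 genes, all higher with PIO, where 10.5% of all tested genes were higher without overlap, and for 0 of 31 in the lower direction, where 8.09% were. The 3 were Chaf1b, Chaf1a and Rrm1. Chaf1b had 8.03, 8.70 and 8.21 FPKM in PIO libraries and 7.48, 7.83 and 7.39 FPKM in control libraries (log2 fold change 0.13, SE 0.059, limma adjusted p = 0.421). Rrm1 had 135, 135 and 137 FPKM in PIO libraries and 130, 133 and 128 FPKM in control libraries (0.057, SE 0.031, limma adjusted p = 0.477). Chaf1a had 43.3, 43.7 and 44.0 FPKM in PIO libraries and 42.8, 42.7 and 38.4 FPKM in control libraries (0.082, SE 0.049, limma adjusted p = 0.511). In each of the 3 the gap between the groups was small beside the level, and in each the lowest value was that of control replicate 3.

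The other chromatin genes were mixed. Slbp, which binds the stem-loop of histone mRNAs, averaged 52.2 ± 0.603 FPKM in PIO and 52.2 ± 2.84 FPKM in control libraries. Uhrf1, which keeps DNA methylation through replication, averaged 45.4 ± 2.73 and 47.7 ± 1.73 FPKM (log2 fold change -0.071, limma adjusted p = 0.584). Rrm2 had 84.7, 84.3 and 77.5 FPKM in PIO libraries and 83.0, 87.5 and 72.2 FPKM in control libraries (0.026, limma adjusted p = 0.893). Replicate 3 was the lowest of its group for Rrm2 in both groups. Dtl, an adaptor of the ubiquitin ligase that removes Cdt1, averaged 14.1 ± 0.433 FPKM in PIO and 15.0 ± 1.12 FPKM in control libraries, and the exonuclease gene Exo1 averaged 18.8 ± 0.552 and 18.2 ± 1.48 FPKM (SD, n = 3 each).

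Hells, a chromatin remodeller gene, was the least abundant and by far the most variable of the 31. It had 1.81, 2.05 and 1.43 FPKM in PIO replicates 1 to 3 and 1.48, 0.602 and 2.83 FPKM in control replicates 1 to 3, from 123, 142 and 97 reads in PIO libraries and 108, 41 and 202 reads in control libraries. The 3 control libraries spanned the whole PIO range on both sides. Its log2 fold change was 0.21 (SE 0.34, 95% interval -0.57 to 1.00, limma adjusted p = 0.812), and it was -0.19 without control replicate 2 and 0.61 without control replicate 3. Neither direction nor size can be read from these libraries for this gene.

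Control replicate 3 set much of the spread of these genes. It was the lowest of the 6 libraries for 16 of the 31 genes, as it was for 24.2% of all tested genes, and the highest for 3, against 22% of all tested genes. PIO replicate 3 was the lowest for 8 of the 31, against 20% of all tested genes. The median deviation of the 31 genes from their own mean over the 6 libraries, in log2(FPKM + 0.5), was 0.028, 0.0036 and -0.017 in PIO replicates 1 to 3 and 0.018, 0.0096 and -0.043 in control replicates 1 to 3. Over all tested genes these medians lay between -0.0042 and 0.0054. Without control replicate 3 the count was 11 higher and 20 lower, and the log2 fold changes of the 31 had a median of -0.026, against 0.0094 over all tested genes in that fit. With any other library left out 16 to 21 of the 31 were higher, with 21 without PIO replicate 3 and 21 without control replicate 1, and the median ran from 0.0023 to 0.029. In the fit without control replicate 3 still 0 of 31 were called (limma), and 2 had an unadjusted p under 0.05. Both were higher with PIO: Cdc45 and Hells. The share of all tested genes at that unadjusted level is not given here for that fit. Atf4 was high in control replicate 3, and its part in these values was not tested.

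**Figure D3:**
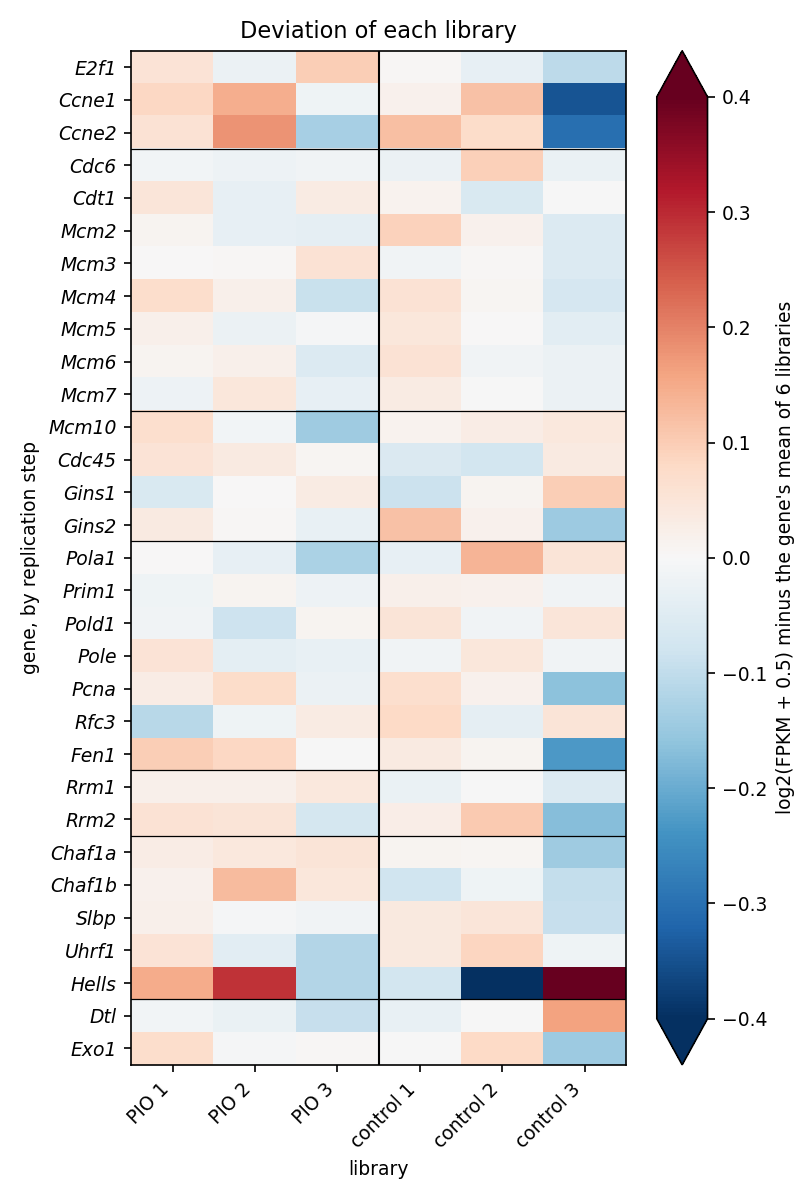
Deviation of each library from the gene's own mean of 6 libraries in log2(FPKM + 0.5), with PIO libraries on the left, control libraries on the right and genes by replication step; colours stop at -0.4 and 0.4. Control replicate 3 is the lowest library for 16 of the 31 genes, most deeply for Ccne1 and Ccne2, and is high for Dtl and Hells.

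The median deviation of control replicate 3 differed between the steps, which hold 2 to 8 genes each. The 3 G1/S genes and both nucleotide supply genes had their lowest value in control replicate 3. The median deviation of that library was -0.30 at G1/S commitment, -0.11 for nucleotide supply and -0.092 for chromatin and histones. It was -0.034 for origin licensing, -0.014 for DNA synthesis and 0.039 for helicase activation. Genes within a step differed as well. Their deviations in that library ran from -0.23 (Fen1) to 0.053 (Pola1) for DNA synthesis and from -0.15 (Gins2) to 0.10 (Gins1) for helicase activation. Among genes with a promoter window, the median deviation of control replicate 3 was -0.017 over the 14 genes that hold the E2F letters and -0.12 over the 12 that do not, a split looked at after the values were seen.

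The rest of the replication machinery was also without a call. Of 57 other replication genes 56 could be tested, and with PIO 35 were higher and 21 lower. Their median log2 fold change was 0.017. None passed in limma (0 of 56, with 2 at an unadjusted p under 0.05, against 12.5% of all tested genes), nor in limma-voom (0 of 56, with 2). Those 2 in limma were lower with PIO. They were Orc4, a subunit gene of the origin recognition complex (9.78 ± 0.763 FPKM in PIO, 11.4 ± 0.446 FPKM in control, SD, n = 3 each), at -0.22 on the log2 scale (limma adjusted p = 0.331), and Atad5, which unloads Pcna (8.13 ± 0.386 and 9.18 ± 0.668 FPKM), with -0.16 (limma adjusted p = 0.390). The next by unadjusted p were Orc3, another origin recognition gene (-0.13, limma adjusted p = 0.433), Rpa1, which coats single-stranded DNA (0.082, limma adjusted p = 0.439), and Gmnn, the inhibitor of Cdt1 (0.12, limma adjusted p = 0.442).

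No regulator of G1 passed the test. Of 28 genes 25 could be tested, 14 higher and 11 lower with PIO. Their log2 fold changes had a median of 0.0068. In limma 0 of 25 were called and 6 had an unadjusted p under 0.05, where 12.5% of all tested genes stood. In limma-voom the counts were 0 and 7, with no share of all genes given here to set beside the 7. Cdkn2c, an inhibitor of Cdk4 and Cdk6, had 8.49, 9.40 and 9.46 FPKM in PIO libraries and 7.96, 7.87 and 7.93 FPKM in control libraries, with no overlap (0.19, limma adjusted p = 0.337). Rbl1, a pocket protein gene that restrains E2F, had 19.4, 16.6 and 14.9 FPKM in PIO libraries and 20.6, 22.4 and 19.2 FPKM in control libraries (-0.29, limma adjusted p = 0.340). Myc had 68.1, 70.7 and 66.0 FPKM in PIO libraries and 71.2, 76.2 and 76.5 FPKM in control libraries (-0.13, limma adjusted p = 0.340). For Myc every PIO library lay below every control library, whereas for Rbl1 PIO replicate 1 lay within the control range. E2f3 averaged 7.94 ± 0.510 FPKM in PIO and 9.32 ± 0.741 FPKM in control libraries (-0.22, limma adjusted p = 0.347). Cdk6 averaged 3.27 ± 0.504 and 4.06 ± 0.418 FPKM, lower with PIO without overlap (-0.28, limma adjusted p = 0.387). Of the 25 genes tested, 2 were higher and 2 lower without overlap, against 10.5% and 8.09% of all tested genes.

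The D cyclins and the CDK inhibitors named in the background differed in sign and none passed the test. Ccnd1 was barely expressed at 1.78 ± 0.131 FPKM in PIO and 1.43 ± 0.0806 FPKM in control libraries. Its log2 fold change was 0.24 (95% interval 0.023 to 0.46, limma unadjusted p = 0.0341, adjusted p = 0.376). Every PIO value of Ccnd1 lay above every control value, as for 10.5% of all tested genes. An unadjusted p under 0.05 was met by 12.5% of all tested genes. Ccnd2 was the abundant D cyclin at 162 ± 16.1 and 182 ± 13.9 FPKM (-0.17, limma adjusted p = 0.422), and Ccnd3 stood at 67.8 ± 2.47 and 64.0 ± 3.49 FPKM (0.084, limma adjusted p = 0.503). Cdkn1a had 22.6, 21.9 and 23.5 FPKM in PIO libraries and 20.3, 22.8 and 20.9 FPKM in control libraries (0.085, 95% interval -0.042 to 0.21, limma adjusted p = 0.542). Cdkn1b had 27.7, 29.8 and 29.7 FPKM in PIO libraries and 27.1, 31.6 and 34.7 FPKM in control libraries (-0.091, 95% interval -0.28 to 0.10, limma adjusted p = 0.659). The groups overlapped for both inhibitors.

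For 23 of 25 genes of G2 and mitosis the 95% interval lay between -0.2 and 0.2, against 23 of the 31 and 41.5% of all tested genes. The median level of the 25 genes stood at percentile 79.3 of all tested genes, and the share among genes of like level is not given here. With PIO 16 of these 25 were higher and 9 lower, and their log2 fold changes had a median of 0.016. In limma 0 of 25 were called and 1 had an unadjusted p under 0.05, against 12.5% of all tested genes, and in limma-voom the counts were 0 and 0. The 1 was Cdk1, the mitotic kinase, with 99.3, 105 and 104 FPKM in PIO libraries and 97.1, 97.2 and 96.2 FPKM in control libraries (0.085, limma adjusted p = 0.379). Next by unadjusted p came the kinase gene Aurkb (0.082, limma adjusted p = 0.416), the transcription factor gene Foxm1 (0.084, limma adjusted p = 0.445), and the checkpoint genes Bub1 (-0.065, limma adjusted p = 0.492) and Mad2l1 (-0.082, limma adjusted p = 0.494).

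**Figure D4:**
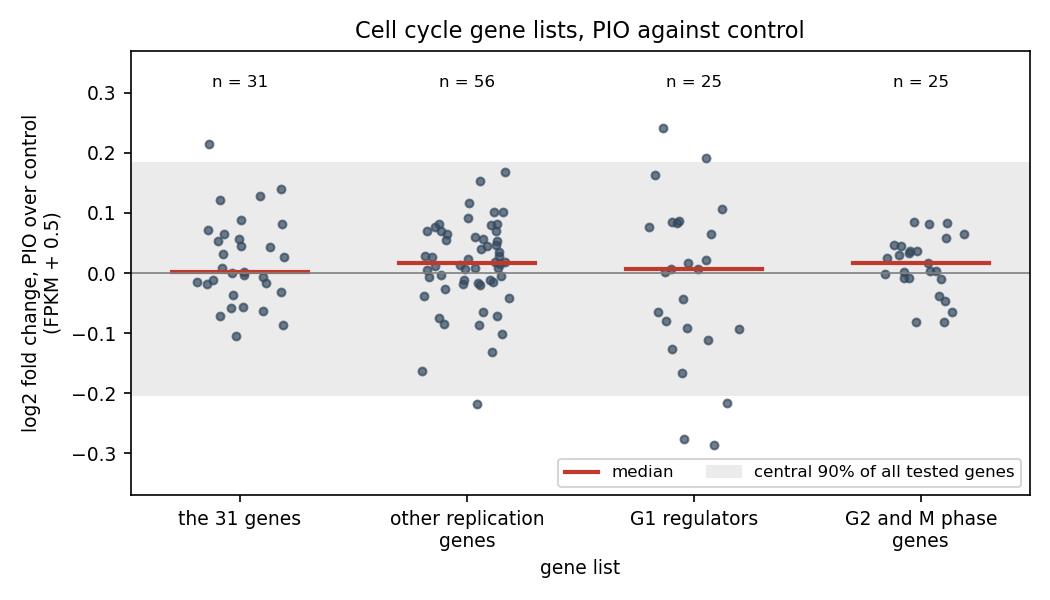
Log2 fold changes of FPKM + 0.5, PIO over control, of the tested genes of the 4 lists (points, spread sideways for legibility), their medians (red lines: 0.00091, 0.017, 0.0068 and 0.016 from left to right) and the central 90% of all tested genes (grey). The points of every list lie on both sides of 0.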

How the data were processed

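RNA came from TRIzol extracts and libraries from a stranded mRNA kit, per the labels' protocols. The deposited table gives FPKM per gene and library, computed by the authors. Per the submitters' processing notes, reads passed through HISAT2 2.2.1.0, Trimmomatic 0.36, Cufflinks, FastQC 0.11.5, DESeq, SAMtools 1.3.1, HTSeq and BWA 0.7.5a, listed with no role or order, and the build was the human GRCh38. The table's gene names are those of the rat, so no coordinates were taken from it.

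The FPKM resolved into whole reads (tolerance 0.001 of a read) for 15427 of 15429 genes above 0. The 10410 genes that averaged 0.5 FPKM or more over the libraries were tested by limma (version 3.58.1, R 4.3.3) on log2(FPKM + 0.5), two-sided, with group as the only term and a variance trend. The pseudocount shrinks the fold changes of low genes. Adjustment was by Benjamini-Hochberg over all tested genes. No permutation test was run, since with 3 libraries a group an exact one cannot reach below 0.1. The code was tested on simulated data. Figures were drawn with matplotlib 3.10.9 in Python 3.11.15, and tables were handled with pandas 2.3.3, scipy 1.17.1 and numpy 2.4.6.

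The 31 genes, the lists and the alternatives were chosen with earlier results of these data known. The text names the 31 genes, the 5 genes of each other list with the smallest p, and Cdkn1a, Cdkn1b, Cdkn2c, Ccnd1, Ccnd2 and Ccnd3. Cdk6 was added after the values were seen, as the remaining G1 regulator with a limma unadjusted p under 0.05. Dna2 and Cdkn2d, of these lists, were not analysed here.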

Additional observations from a re-analysis of the deposited data

How the results depend on the processing

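Of 17 alternatives, none called any of the 31 genes, and the smallest adjusted p (limma) among them was 0.366. The number of all genes called was 4, against 1 without a filter, 2 without a variance trend, 7 with a robust variance fit, 7 with limma-voom, and 2 to 4 with a library left out. The median log2 fold change of the 31 was -0.028 under TPM scaling and ran from -0.026 to 0.029 with a library left out. TPM scaling divided all genes of a library by the same factor, so it moved the fold changes of all genes. The factor was 0.996, 1.014 and 1.021 in PIO replicates 1 to 3 and 1.004, 0.982 and 0.984 in control replicates 1 to 3. The median over all tested genes under TPM scaling is not given here. Deviations of PIO and control libraries with the same replicate number had correlations of -0.068, 0.028 and 0.078 for replicates 1 to 3. With 3 libraries a group these cannot settle whether replicate numbers pair the libraries, and the labels do not say. The median deviation of the 31 genes fell from replicate 1 to 3 in both groups. It was 0.028, 0.0036 and -0.017 in PIO and 0.018, 0.0096 and -0.043 in control libraries. With the replicate block 3 genes were called and 0 of the 31.

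Directions turned in 16 of the 31 genes. Slbp was at -0.0054 under median-of-ratios scaling, -0.028 under TPM scaling and -0.027 with the gene length trend removed. TPM scaling also gave -0.019 for Gins2 and -0.0028 for Rrm2, and removing the length trend gave 0.028 for Pole. Both scalings divide all genes of a library by the same factor. Without scaling Slbp, Gins2 and Rrm2 stood at 0.00091, 0.0083 and 0.026. The cause of the turns with the length trend removed was not tested. With a library left out, log2 fold changes ran from -0.061 to 0.15 for Ccne2, -0.052 to 0.0090 for Cdc6, -0.073 to 0.00041 for Mcm2, -0.036 to 0.045 for Mcm4, -0.026 to 0.018 for Mcm5, -0.029 to 0.010 for Mcm6, -0.029 to 0.0096 for Mcm7, and -0.10 to 0.00032 for Mcm10. They ran from -0.063 to 0.030 for Gins1, -0.063 to 0.068 for Gins2, -0.040 to 0.0087 for Pole, -0.015 to 0.10 for Pcna, -0.053 to 0.085 for Rrm2, -0.045 to 0.026 for Slbp, -0.19 to 0.61 for Hells, and -0.017 to 0.096 for Exo1. Hells had 41 to 202 reads a library and a log2 standard error of 0.34, whereas Ccnd1, with 80 to 109 reads, had one of 0.095, and the cause of the scatter of Hells was not tested.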
